A study of Rattus rattus with 23 samples.

Results

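The nasal lining is coated by fluid that surface epithelium and submucosal glands secrete, and 9 genes encoding such odorant-binding, antimicrobial or antiprotease proteins were examined. They were Obp1f, Bpifa1, Slpi, Lyz2, Ltf, Pigr, Lcn2, Serpina1 and Cst3, each represented by the probe sets carrying that symbol in the platform's annotation. Of the 9 names, 8 had 1 probe set each, out of 14217 genes with a probe set of 1 symbol. The platform table listed no probe set under the symbol Ltf, which encodes lactoferrin, and that gene was not analysed here. All 8 measured genes passed the filter on low values described under the processing, which left 11249 genes.

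RNA was profiled on 23 Affymetrix Rat230_2 arrays, 1 per male Sprague-Dawley rat, from laser-captured nasal respiratory epithelium taken where the tissue is injured and regenerates. Rats breathed air or 200 ppm hydrogen sulfide (H2S), a toxic gas that blocks mitochondrial respiration, by nose only for 3 h a day. The exposed groups had 1 exposure and were sampled at 3 h (n = 4, animals 3 to 6), 6 h (n = 3, animals 8 to 10) or 24 h (n = 4, animals 11 to 14) from its start, or had exposures on 5 days and were sampled at 144 h (n = 4, animals 23 to 26). Air animals were sampled at 24 h after 1 session (n = 4, animals 15 to 18) and at 144 h after 5 (n = 4, animals 19 to 22). There were no air animals at 3 h or 6 h, so those groups differ from their air group in time as well as in gas, and the same 4 air animals serve the comparisons at 3 h, 6 h and 24 h. The animals carried no genetic change per the labels, which give an age of 60 days where the design text gives 10 weeks. For animals 6, 14 and 18 the label on treatment gives 5 days against the single exposure of their titles, which were followed.

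Odorant-binding proteins are lipocalins, small barrel-shaped carriers that bind hydrophobic odorants in nasal mucus. Lipocalin-2, lysozyme and BPI-fold proteins act against bacteria at the airway surface by withholding iron, cleaving cell walls or altering surface properties. Secretory leukocyte protease inhibitor and alpha-1 antitrypsin restrain neutrophil elastase, cystatin C restrains cysteine proteases such as cathepsins, and the polymeric immunoglobulin receptor carries IgA across the epithelium into the secretions.

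Values are the deposited signals (intensity, linear scale), and changes are differences of group means of log2(signal + 16), a scale that understates the change of weakly expressed genes. Array medians ran from 136 to 341, and the number of arrays limits the precision. The arrays of animal 18 (air, 24 h) and animal 22 (air, 144 h) stood apart, with median correlations to the other arrays of 0.427 and 0.741 against 0.857 to 0.917 for the other 21, so results are given with and without them. Centring each array on its median adds the same amount to every change, 0.18 at 3 h, 0.26 at 6 h, 0.27 at 24 h and 0.34 at 144 h. RNA integrity numbers, given for 19 arrays, ran from 1.7 in animal 26 to 10.0 in animal 14. Epcam, Cdh1, Krt8, Krt18, Krt19 and Cldn4, markers of epithelium, lay above the array median on all 23 arrays. Of the olfactory and Bowman gland list, Omp, the marker of olfactory neurons, did so on 3 arrays. Others did so on 0 (Ugt2a1), 3 (Cnga2), 6 (Tubb3), 10 (Gnal), 20 (Cyp2g1), 21 (Adcy3) and 23 (Gap43 and Cyp2a3). Of the cartilage and bone list, Matn1 did so on 2, Col2a1 on 4, Comp on 5, Acan on 22, and Ibsp, Bglap and Spp1 on 23. Median signals were 23977 for Ibsp and 17742 for Bglap, against 13321 for Epcam, the highest among the epithelium markers. In such bulk samples fewer cells of a type and less RNA per cell cannot be told apart.

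No gene of the 8 passed the test in any comparison. The largest difference was that of the antiprotease Slpi at 3 h, 5.51-fold above air animals on the scale used. At 3 h, 7 of the 8 changes were above 0, with a median of 0.60 against 0.087 over all 19822 probe sets tested. Markers of epithelium, ciliated cells and basal cells moved the same way there, and limma called none of them. Above 0 were 6 of 6 epithelium markers (median 0.902), 8 of 9 ciliated (median 1.02) and 5 of 6 basal cell markers (median 0.865). Their summed signals ran from 14980 to 43875 in air at 24 h and from 37801 to 129135 at 3 h for epithelium, from 6282 to 11403 and from 11625 to 30520 for ciliated cells, and from 7847 to 13750 and from 15165 to 53912 for basal cells. The epithelium low of 14980 was that of animal 18, and the other air animals at 24 h ran from 37905 to 43875. At 144 h the medians of the 3 lists were 0.763, 1.12 and 0.57, beside a median below 0 for the 8 genes. Neutrophil and myeloid markers, Lyz2 among them, were also above 0 at 3 h, 9 of 9 with a median of 1.27. So were 15 of 24 other secreted genes (median 0.65) and 13 of 16 acute response genes (median 0.45), lists described below. The serous gland, goblet, olfactory and cartilage lists did not share the rise. Serous gland markers were above 0 in 4 of 8 (median -0.066) and goblet and secretory markers in 4 of 8 (median 0.195). Olfactory and Bowman gland markers were so in 2 of 8 (median -0.606), and cartilage and bone markers in 1 of 6 (median -0.304). The part of cell content in these differences was not tested. The median of the 8 genes was 0.28 at 6 h (6 above 0, or 3 without animals 18 and 22), 0.18 at 24 h (4 above 0) and -0.33 at 144 h (3 above 0), against 0.079, 0.073 and -0.022 over all probe sets. Without animals 18 and 22 these medians were 0.49, -0.036, 0.11 and -0.037, so the positive median at 6 h and the size of the negative median at 144 h rested on those arrays. With median centring they were 0.78, 0.54, 0.45 and 0.014, and with quantile normalization, which gives all arrays 1 distribution, 0.89, 0.12, 0.32 and 0.16, so the sign at 144 h depended on the scaling. With limma and Benjamini-Hochberg adjustment over all probe sets, 0 of 8 were called at 3 h, where 0.0807% of all probe sets were, and 3 of 8 had an unadjusted p under 0.05 (Slpi, Lcn2 and Serpina1) against 9.8% of all. At 6 h limma called 0 of 8 (0.00504% of all), with 1 at an unadjusted p under 0.05 (Slpi; 5.81% of all). At 24 h limma called 0 of 8 (0.0101% of all), with 0 at an unadjusted p under 0.05 (8.09% of all). At 144 h limma called 0 of 8 (0% of all), with 1 at an unadjusted p under 0.05 (Serpina1; 7.8% of all).

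**Figure D1:**
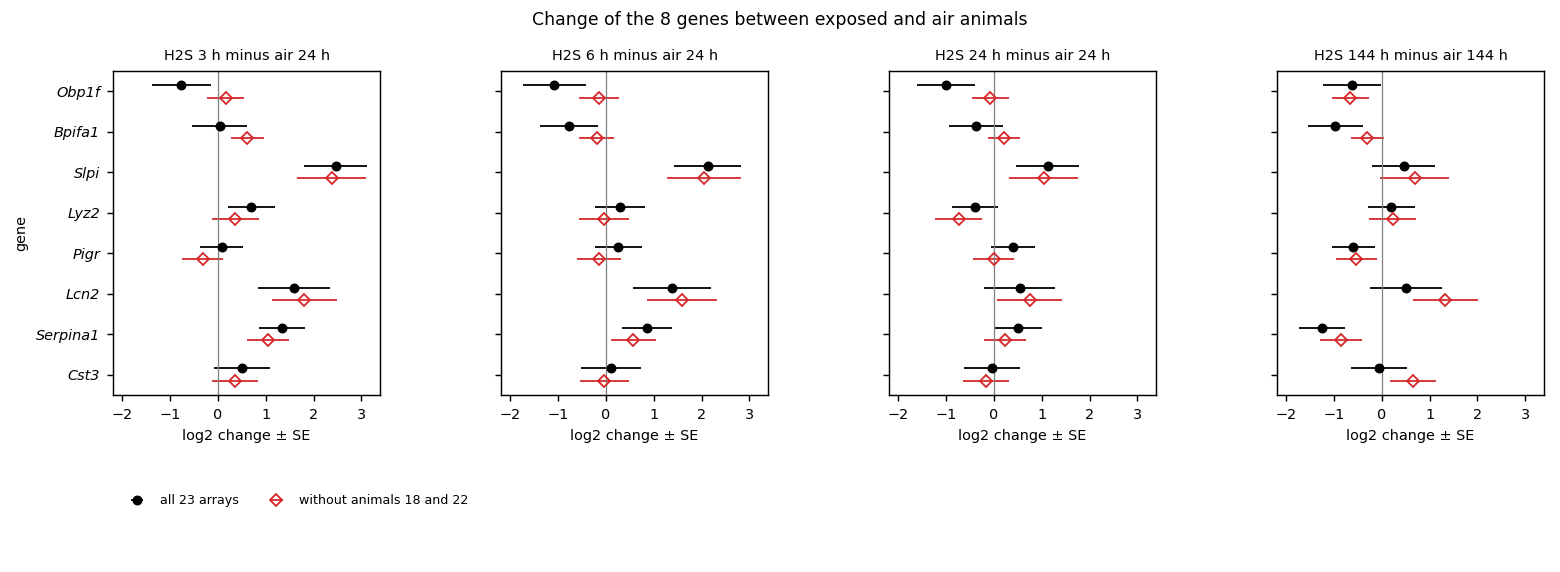
Change of each gene between exposed and air animals in 4 panels (x axis, log2 change ± SE from limma; y axis, gene). Filled circles use all 23 arrays and open diamonds leave out animals 18 and 22; Slpi and Lcn2 lie right of 0 at 3 h and 6 h in both, while the Obp1f values at 3 h, 6 h and 24 h move toward 0 or past it without these 2 animals.

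Slpi, which encodes secretory leukocyte protease inhibitor, a gland and epithelial inhibitor of neutrophil elastase, gave the largest difference from air of the 8 genes at 3 h, 6 h and 24 h. Its signals in air animals at 24 h were 2404, 197, 1085 and 648 (animals 15 to 18), and at 3 h after exposure they were 2834, 5604, 6561 and 3275 (animals 3 to 6). All 4 exposed animals lay above all 4 air animals, a separation in that direction found for 3.02% of all probe sets. The difference was 2.46 on the log2 scale (SE 0.656, 95% confidence interval 1.10 to 3.82, adjusted p = 0.228, limma). It was 2.38 without animals 18 and 22 (adjusted p = 0.307) and between 1.83 and 3.00 when single animals were left out. The lower end came without animal 16, whose signal of 197 was the lowest of all 23 animals.

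At 6 h the Slpi signals were 3191, 7885 and 1563 (animals 8 to 10), and animal 10 lay below air animal 15. The difference from air was 2.13 (SE 0.708, limma adjusted p = 0.781). At 24 h, with 1218, 2413, 1106 and 2511 (animals 11 to 14), it was 1.12 (SE 0.656, limma adjusted p = 0.623) and the groups overlapped, and without animal 16 it was 0.50. The mean was highest at 3 h, and the step from 6 h to 24 h was -1.002 (limma adjusted p = 1), or -0.40 without animal 9. After repeated exposure, at 144 h, the signals were 5815, 1111, 4582 and 1352 (animals 23 to 26) against 1230, 1288, 2407 and 2977 in air animals (animals 19 to 22), and the difference was smaller than its SE. Between the air groups Slpi was 1.24 higher at 144 h than at 24 h (SE 0.656, limma adjusted p = 0.625), and 0.62 higher without animal 16.

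**Figure D2:**
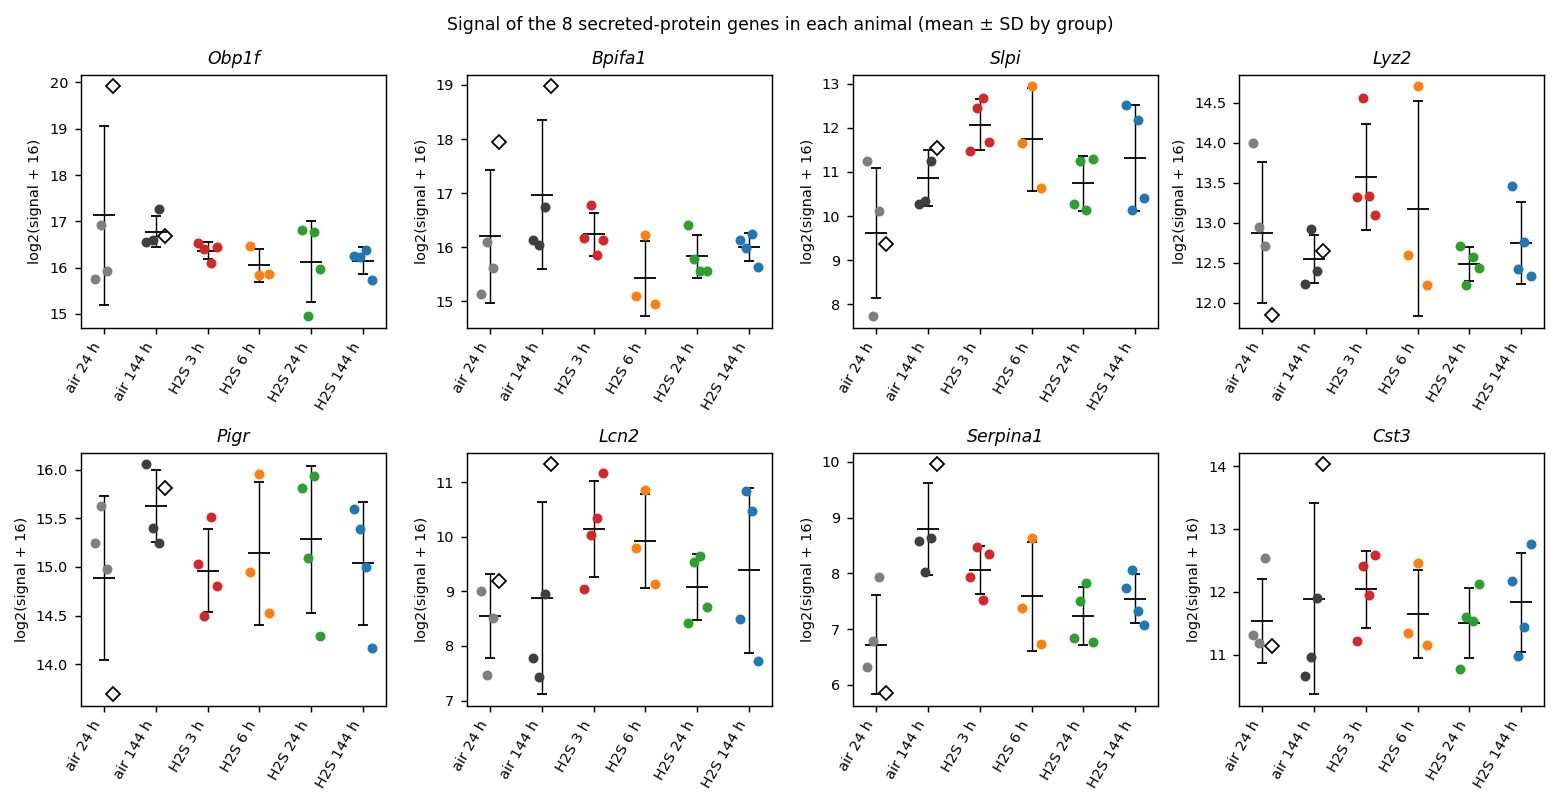
Signals of the 8 genes in every animal (y axis, log2(signal + 16); x axis, group; circles, animals; open diamonds, animals 18 and 22; bars, mean ± SD). All 4 Slpi values at 3 h lie above the 4 air values at 24 h, the Serpina1 values of air animals at 144 h lie above those of air animals at 24 h, and animal 18 lies far above all others for Obp1f.

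Serpina1, which encodes alpha-1 antitrypsin, a liver-derived and local elastase inhibitor, showed its largest difference between the air groups. Air animals had signals of 63.6, 94.6, 227 and 41.6 at 24 h and of 367, 244, 381 and 977 at 144 h, so every animal at 144 h exceeded every animal at 24 h. That separation, with all later animals higher, was found for 1.24% of all probe sets. The difference was 2.08 (SE 0.482, limma adjusted p = 0.542), the 7th smallest p of all probe sets, and 1.40 (unadjusted p = 0.00751, limma adjusted p = 1) without animals 18 and 22, which held the lowest and the highest of the 23 values. It was 1.19 with array weights, a setting that lowers the weight of poorly fitting arrays. In this comparison limma called 0 of 8 genes (0% of all probe sets), and 1 of 8 had an unadjusted p under 0.05 (8.37% of all).

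Against these differing air levels the Serpina1 differences were above 0 after 1 exposure and below 0 after 5. At 3 h its signals were 229, 339, 167 and 308, of which 1 lay below the highest air value, a difference of 1.35 (SE 0.482, limma adjusted p = 0.399) and of 1.06 without animals 18 and 22 or 0.69 with array weights. At 6 h they were 151, 383 and 90.1, a difference of 0.86 (SE 0.521, limma adjusted p = 0.781) that was 0.34 without animal 9. At 24 h they were 98.1, 166, 211 and 93.0, a difference of 0.51 (SE 0.482, limma adjusted p = 0.729) that was -0.079 with array weights. After 5 exposures they were 198, 251, 144 and 118, overlapping air animal 20, and the difference was -1.25 (SE 0.482, limma adjusted p = 0.6), or -0.86 without animals 18 and 22. The effect of exposure at 144 h minus that at 24 h was -1.76 (SE 0.682, limma adjusted p = 0.946) and -1.09 without those animals. In that test of the difference limma called 0 of 8 genes (0% of all), and 1 of 8 had an unadjusted p under 0.05 (4.69% of all). Serpina1 was the weakest signal of the set, above the array median on 14 of 23 arrays, including 1 of 4 in air animals at 24 h. Of the blood and plasma list, Alb and Ttr, markers of liver plasma protein synthesis, lay above the median on 3 and 1 arrays. Of its red cell genes, Alas2 did so on 7 and Hbb on 23.

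Cst3, which encodes cystatin C, an inhibitor of cathepsins, differed from air by less than its SE at every time with all arrays. Without animals 18 and 22 the difference at 144 h was 0.66 (SE 0.487, limma adjusted p = 0.611). Its signals ran from 2222 to 5934 in air animals at 24 h, from 2359 to 6133 at 3 h, from 2251 to 5589 at 6 h and from 1737 to 4458 at 24 h. At 144 h exposed animals spanned 1990 to 6898 and air animals 1602 to 16704. The highest value was that of animal 22, 2.42 times the next animal. The intervals were wide, from -0.72 to 1.72 on the log2 scale at 3 h, so changes inside them were not detectable with these arrays.

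Lcn2 encodes lipocalin-2, which binds bacterial siderophores and is made by both neutrophils and stimulated epithelium. Its signals were 500, 162, 351 and 567 in air animals at 24 h and 512, 1029, 1277 and 2281 at 3 h. Of the exposed animals 3 exceeded all air animals, and animal 3 lay between the air values. The difference was 1.60 (SE 0.750, limma adjusted p = 0.503), and 1.81 without animals 18 and 22. At 6 h the signals of 870, 1829 and 548 were 1.38 higher than in air (SE 0.810, limma adjusted p = 0.781), with animal 10 just below animal 18, and 0.92 higher without animal 9. At 24 h they were 326, 732, 783 and 406, and the difference was 0.54 (SE 0.750), or 0.75 without animals 18 and 22 (SE 0.677, limma adjusted p = 0.889). The step from 6 h to 24 h was -0.84 (SE 0.810, limma adjusted p = 1), and -0.38 without animal 9.

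At 144 h the Lcn2 comparison turned on animal 22. Exposed animals had 347, 1811, 1410 and 196, and air animals 205, 156, 482 and 2552, of which animal 22 was the highest of all 23. With all arrays the difference was 0.51, under its SE, and without animals 18 and 22 it was 1.33 (SE 0.677, limma adjusted p = 0.43). Within groups Lcn2 varied more than most genes, with an SD of 1.16 on the log2 scale against a median of 0.672 over all genes (93rd percentile), and Slpi had an SD of 0.998.

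Lyz2, which encodes the lysozyme of macrophages, neutrophils and glands, had its highest signals in 3 animals of 3 different groups: 26753 in animal 9 (6 h), 24047 in animal 4 (3 h) and 16378 in animal 15 (air, 24 h). The other animals lay between 3678 and 11269. Its difference from air was 0.70 at 3 h (SE 0.488, limma adjusted p = 0.625) and 0.36 without animals 18 and 22, and it was under its SE at the other times, although at 24 h it was -0.73 without those animals (SE 0.492, limma adjusted p = 0.841). Without animal 15, the highest air animal, the 3 h difference was 1.08. From 6 h to 24 h it was -0.69 (limma adjusted p = 1), and 0.075 without animal 9.

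Over the 21 arrays without animals 18 and 22, the level of 8 myeloid markers had r of 0.66 with Lyz2, 0.63 with Slpi and 0.56 with Lcn2. Lcn2 had a higher r, 0.68, with the genes of the acute mucosal response described below, a list that shares Cd14. The 8 measured markers besides Lyz2 had a summed signal of 2321 to 8675 in air animals at 24 h, 5937 to 12131 at 3 h, 3659 to 7859 at 6 h and 2344 to 5212 at 24 h, and of 2884 to 7109 in air and 3160 to 4577 in exposed animals at 144 h. At 3 h all 9 measured markers, Lyz2 among them, were above 0 with a median of 1.27, and limma called none of them. Of this list Mpo, Elane and Ngp, granule proteins that define neutrophils, had no probe set listed under those symbols. Itgam lay above the array median on 1 array, Csf3r on 2, S100a8 on 9 and S100a9 on 19. The 3 animals with the highest Lyz2 (9, 4 and 15) were also the 3 with the highest summed marker signal, and animal 16, lowest in Slpi, had the lowest sum, 2321. Other animals departed from this: animal 6, second highest in Lcn2 at 2281, had the lowest sum at 3 h, 5937. Animal 15, second highest in the sum at 8675, had a Slpi signal of 2404. The part of myeloid cells in the Slpi, Lcn2 and Lyz2 differences was not tested.

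**Figure D3:**
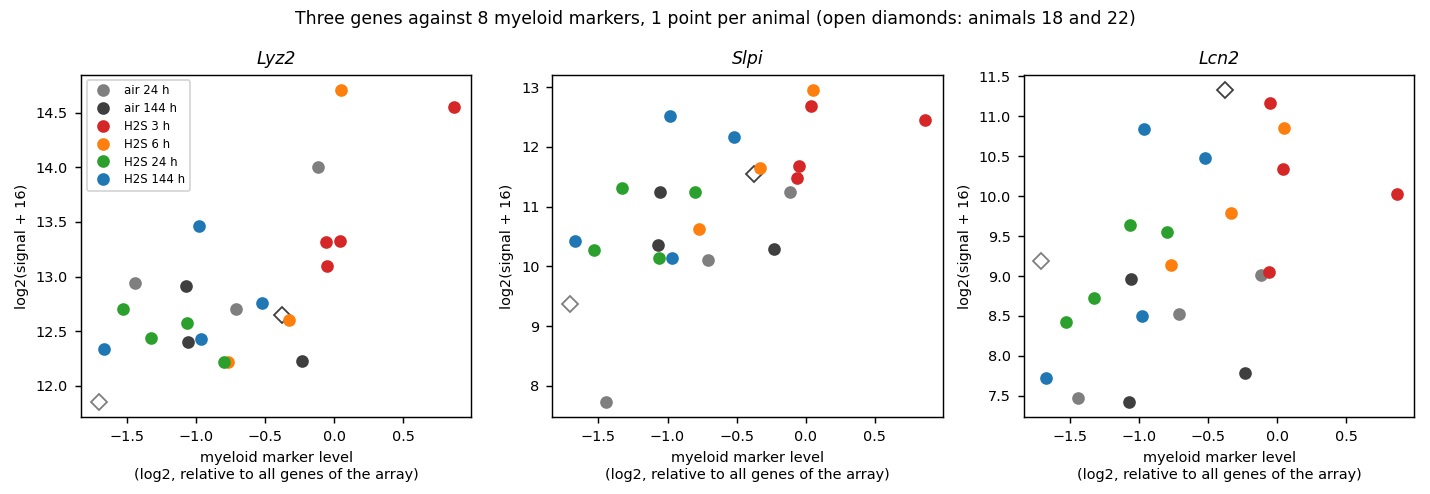
Signal of Lyz2, Slpi and Lcn2 (y axis, log2(signal + 16)) against the level of 8 myeloid markers (x axis, mean log2 of the markers minus the mean over all genes on that array), 1 point per animal coloured by group, open diamonds for animals 18 and 22. Animal 4, at 0.86, has the highest marker level, and animal 18, at -1.71, has the lowest marker level and the lowest Lyz2 signal.

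Obp1f encodes an odorant-binding protein of nasal glands, and its signals depended on animal 18. Air animals at 24 h had 55012, 124865, 62173 and 993447, of which the last, animal 18, was 6.30 times the next highest of all 23 animals. Without it the air signals spanned those of the exposed animals at 3 h and 6 h. Exposed animals had 94831, 86277, 70372 and 88793 at 3 h, 89903, 58284 and 59547 at 6 h, and 115765, 31730, 111105 and 64550 at 24 h. The differences from air were -0.76, -1.08 and -1.002 with all arrays (SE 0.611, 0.659 and 0.611; limma adjusted p = 0.664, 0.781 and 0.632) and 0.17, -0.15 and -0.072 without animals 18 and 22. The latter 3 values are all smaller than their SE.

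After 5 exposures Obp1f gave a separation that did not rest on it. Air animals at 144 h had 95977, 98955, 157667 and 104445 and exposed animals 77797, 76255, 85864 and 54209, so every exposed animal lay below every air animal. Of all probe sets 3.43% separated in that direction. The difference was -0.63 (SE 0.611, limma adjusted p = 0.828) and -0.66 without animals 18 and 22 (SE 0.388, limma adjusted p = 0.501). It was -0.28 with median centring and 0.24 with quantile normalization, so its direction depends on the scaling. Beside it, the 8 measured markers of serous glands had a summed signal of 26744 to 131945 in these air animals and 33378 to 87868 in the exposed ones, 2 of 8 were above 0, and their median was -0.76. Medians were also below 0 for cartilage and bone markers (-1.35, 1 of 6 above 0) and for stroma and vessel markers (-0.674, 1 of 6 above 0). They were above 0 for epithelium (0.763), ciliated (1.12), basal (0.57) and goblet and secretory markers (0.289). The part of gland or other cell content in the Obp1f difference was not tested.

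Bpifa1 encodes the BPI-fold protein known as SPLUNC1, an abundant product of upper airway epithelium and glands. Animals 22 and 18 had its highest signals, 516957 and 252976, and the other 21 lay between 31641 and 113059. At 3 h (59444 to 113059) it differed from air by less than its SE, or by 0.62 without these 2 animals (SE 0.341, limma adjusted p = 0.579). At 6 h the signals were 35225, 76693 and 31641, a difference of -0.77 from air (SE 0.615, limma adjusted p = 0.781) and of -0.19 without the 2 animals. Against the animals at 3 h the difference was -0.81 (SE 0.615, limma adjusted p = 1), of which leaving out the 2 air arrays lowered the SE to 0.341 (adjusted p = 0.508). For this step from 3 h to 6 h, 1 of 8 genes was above 0 (median -0.36), and limma called 0 of 8 (0.00504% of all) with 0 at an unadjusted p under 0.05 (4.21% of all). From 6 h to 24 h limma also called 0 of 8 (0.0101% of all), with 0 at an unadjusted p under 0.05 (3.06% of all). At 24 h, with 48161 to 87431, the Bpifa1 difference from air was under its SE. At 144 h Bpifa1 spanned 51142 to 78092 in exposed animals and 67788 to 516957 in air animals, a difference of -0.97 (SE 0.570, limma adjusted p = 0.693) that was -0.30 without the 2 animals and 0.69 with quantile normalization. Between the air groups it was 0.77 higher at 144 h (SE 0.570, limma adjusted p = 0.704), and 0.11 higher without animal 22.

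Pigr encodes the polymeric immunoglobulin receptor, whose cleaved part accompanies IgA into mucus. With all arrays its within-group SD was 0.647 on the log2 scale, the lowest of the 8 genes, and its span from animal 18 (13183) to animal 19 (68190) was 5.17-fold. Without animals 18 and 22 the SD was 0.587, above those of Obp1f (0.518) and Bpifa1 (0.438). Exposed animals spanned 23138 to 46841 at 3 h, 23493 to 63632 at 6 h and 20019 to 62903 at 24 h, against 13183 to 50743 in air, and each difference was under its SE. At 144 h exposed animals spanned 18333 to 49590 and air animals 38884 to 68190, a difference of -0.60 (SE 0.456, limma adjusted p = 0.77) and of -0.53 without animals 18 and 22. It was -0.31 without animal 26 and -0.26 with median centring. Between the air groups Pigr was 0.75 higher at 144 h (SE 0.456, limma adjusted p = 0.658), and 0.29 higher without animals 18 and 22. The effect at 144 h minus that at 24 h was -0.99 for Pigr (SE 0.644, limma adjusted p = 0.946), and -0.53 without those animals. Without animals 18 and 22 that difference was 0.96 for Lyz2 (SE 0.695) and 0.83 for Cst3 (SE 0.688). In the same fit it was -0.59 for Obp1f (SE 0.549) and -0.52 for Bpifa1 (SE 0.482). The limma adjusted p in that fit was 0.954 for each of these genes. With all arrays the difference was under its SE for each of them.

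Slpi, Lcn2, Lyz2 and Cst3 had their highest group mean at 3 h, and Obp1f, Bpifa1, Pigr and Serpina1 in an air group. Slpi means on the log2 scale were 12.08 ± 0.585 (SD, n = 4) at 3 h, 11.74 ± 1.16 (n = 3) at 6 h, 11.31 ± 1.20 (n = 4) in exposed animals at 144 h, 10.86 ± 0.636 (n = 4) in air at 144 h, 10.74 ± 0.623 (n = 4) in exposed animals at 24 h and 9.61 ± 1.47 (n = 4) in air at 24 h. Among the 40 gaps between neighbours in the orders of the 8 genes, 1 exceeded the larger SD of its 2 groups. That was Obp1f, 16.77 ± 0.334 in air at 144 h against 16.37 ± 0.186 at 3 h (both n = 4).

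The genes were compared with one another over the 21 arrays without animals 18 and 22, as 28 pairs. Slpi and Lcn2 varied together across animals with r = 0.602 (permutation p = 0.00322, adjusted over the pairs 0.0554) and rho = 0.549 (permutation p = 0.0107, adjusted 0.149), and r was 0.448 without the 2 animals farthest from the Slpi median. Bpifa1 and Serpina1 had r = 0.606 (permutation p = 0.00396, adjusted 0.0554) and rho = 0.556 (permutation p = 0.0096, adjusted 0.149), and r was 0.572 without the 2 farthest animals. Slpi and Lyz2 had r = 0.527 (permutation p = 0.0086, adjusted 0.0803) and rho = 0.509 (permutation p = 0.0204, adjusted 0.19), and r was 0.596 without the 2 farthest. No pair passed the adjustment, and the permutations shuffled animals across groups, so the p values also reflect differences between group means. With group means removed these r were 0.371, 0.494 and 0.588, so the Slpi and Lcn2 relation was weaker within groups. Pigr and Cst3 had the lowest r, -0.45, and -0.076 with all 23 arrays.

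**Figure D4:**
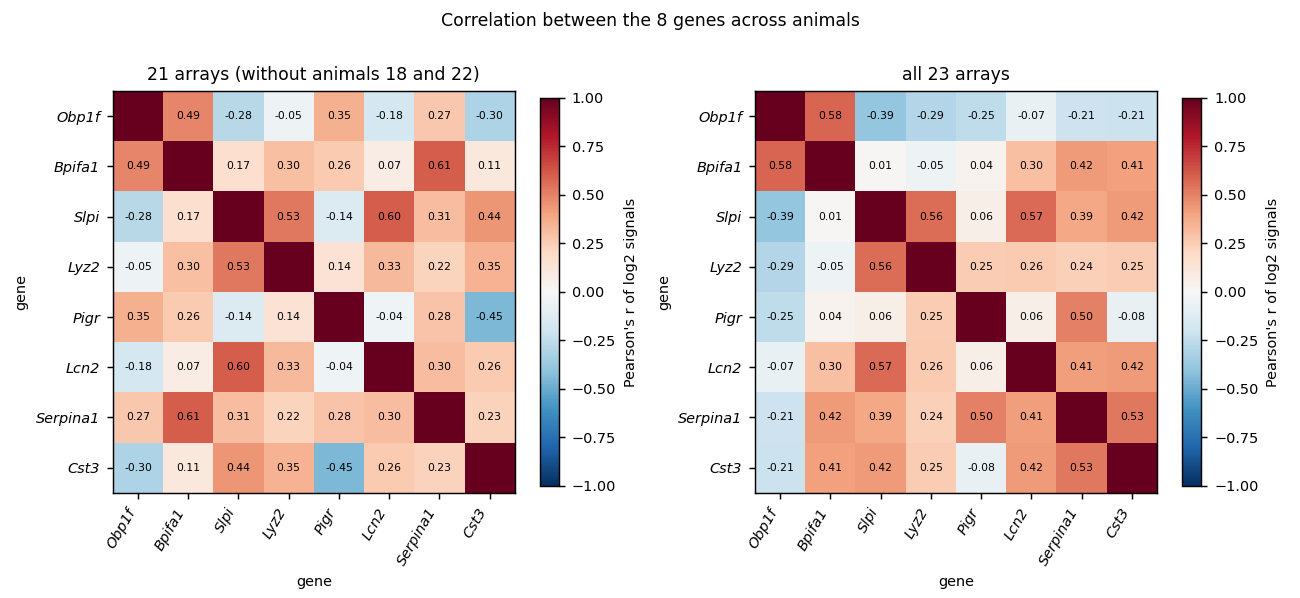
Pearson's r of log2 signals between each pair of the 8 genes (x and y axes, genes; colour and number, r) over 21 arrays without animals 18 and 22 (left) and over all 23 (right). The Slpi and Lcn2 value is 0.60 on the left and 0.57 on the right, whereas Pigr and Cst3 go from -0.45 to -0.08.

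Over the same 21 arrays each gene was set beside the 11248 other genes, by Pearson's r as a description of animals that share groups and array quality. Lyz2 lay closest to Laptm5 (0.938), Ly86 (0.937) and Coro1a (0.925), genes of leukocytes, at 0.928, 0.873 and 0.905 with all 23 arrays. Obp1f was nearest to Obp3 (0.825), another lipocalin of the odorant-binding family, though at 0.38 with all 23 arrays. Its other neighbours were B3gat3 (0.787) and Ppp2r2a (0.774). The nearest genes were Nlrx1 (0.839), Kcnh3 (0.827) and RGD1564887 (0.81, but 0.023 with all 23 arrays) for Bpifa1, and Mob3a (0.825), Actr2 (0.75) and Ncf4 (0.748), a subunit of the phagocyte oxidase, for Slpi. For Pigr they were Tnfsf13 (0.822), a cytokine that supports plasma cells, Sox10 (0.805) and Cacng2 (0.784), of which the last 2 had 0.533 and 0.406 with all 23 arrays. Lcn2 was closest to Supt4h1 (0.797), Tmem41a (0.792) and Mgst2 (0.784), of which the first 2 had r of 0.168 and -0.007 with all 23 arrays. Serpina1 was closest to Gsg1l (0.769), Gsk3a (0.756) and Slc9a8 (0.727), at 0.455, 0.105 and 0.438 with all 23 arrays, and Cst3 to Lgals1 (0.771), Eml3 (0.749) and Eme2 (0.746).

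Other genes of the secretory defence were read from lists chosen beside the 8 genes, and limma called no member of them against air. Among 24 other airway surface and gland secreted genes, 15 were above 0 at 3 h (median 0.65), 9 at 6 h (median -0.34), 13 at 24 h (median 0.36) and 14 at 144 h (median 0.14). Their smallest p values at 3 h belonged to Bpifa5, a relative of Bpifa1, at 1.99 (SE 0.618, limma adjusted p = 0.344) and the protease trap A2m at 1.37 (SE 0.577, limma adjusted p = 0.469). At 24 h the leukocyte elastase inhibitor Serpinb1a stood at 1.86 (SE 0.417, limma adjusted p = 0.338) and the antimicrobial peptide gene Camp at -2.17 (SE 0.940, limma adjusted p = 0.612). At 144 h Serpinb1a stood at 1.18 (limma adjusted p = 0.584) and Azgp1, a secreted zinc-binding glycoprotein, at -1.62 (SE 0.643, limma adjusted p = 0.6). From 3 h to 6 h 6 of the 24 were above 0 (median -0.82), with Bpifb1, another BPI-fold protein, at -3.72 (limma adjusted p = 0.555) and the gel-forming mucin Muc5b at -2.52 (limma adjusted p = 0.705). Against air at 6 h the mucin Muc5ac stood at -2.91 and the mucosal chemokine Ccl28 at -2.31 (limma adjusted p = 0.781 for both).

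Of 8 proteases that the inhibitors act on or beside, 6 were above 0 at 3 h (median 0.21), 4 at 6 h (median 0.027), 3 at 24 h (median -0.21) and 3 at 144 h (median -0.25). At 3 h the mast cell chymase Cma1 stood at -2.04 (SE 0.685, limma adjusted p = 0.381) and the cathepsin Ctsl, a target of cystatins, at 1.19 (SE 0.465, limma adjusted p = 0.433). At 6 h Cma1 stood at -1.99 and the cathepsin Ctsz at -1.01 (limma adjusted p = 0.781 for both). At 24 h the cathepsins Ctsk and Ctsc stood at -1.21 and 0.53 (limma adjusted p = 0.612 and 0.637), and at 144 h Ctsb and Ctsl at -0.34 and -0.41 (limma adjusted p = 0.842 and 0.861). A further list held 16 genes for cytokines, receptors and signalling proteins of the acute mucosal response, not limited to inducers of such secretions. Of these, 13 were above 0 at 3 h (median 0.45), 10 at 6 h (median 0.055), 7 at 24 h (median -0.062) and 11 at 144 h (median 0.14). Cd14, the co-receptor for bacterial lipopolysaccharide, stood at 2.35 at 3 h (SE 0.685, limma adjusted p = 0.302), 1.86 at 6 h and 1.52 at 24 h, and the adaptor Myd88 at 0.84 at 3 h (SE 0.31, limma adjusted p = 0.405). The cytokine Il1a stood at -2.09 at 6 h (limma adjusted p = 0.781) and the transcription factor Cebpd at -0.99 at 24 h (limma adjusted p = 0.612). At 144 h Tlr4, the lipopolysaccharide receptor, stood at 0.86 and Nfkbiz at 0.84 (limma adjusted p = 0.717 and 0.785). Cd14 is also a myeloid marker and belongs to that list too.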

How the data were processed

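The authors deposited probe set intensity on a linear scale, and the submitters' processing notes name GCOS 1.0, with settings not given in the sources used here. Per the labels' protocols, captured RNA was amplified in 2 rounds. The 2% trimmed mean was about 500 on every array, and no further normalization was applied. Of 31099 probe sets, those above their own array's median on at least 3 arrays were kept (19822), and 57 controls were left out. Symbols came from the platform table (20832 probe sets with 1 symbol, 436 with several, 9831 with none), and genome positions were not used here. Where a gene had several kept probe sets, the one with the highest mean stood for it.

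Comparisons used limma 3.58.1 under R 4.3.3 (two-sided, 1 mean per group, all 23 arrays, Benjamini-Hochberg adjustment over all kept probe sets, threshold 0.05). Animals were taken as replicates, and nothing in the labels pairs them. The scripts were tested on simulated data. Correlations between the 8 genes used two-sided permutation tests that shuffled animals across groups. The 8 genes, the lists and the alternatives were chosen with earlier results of these data known. Changes under their own SE are given by count or as such, a rule chosen after seeing the data. The rule named the 8 genes, the 3 genes nearest each by r and, from each list, up to 4 members past the threshold or the 2 of smallest p. These list members are printed for the comparisons of exposed with air animals, and otherwise only for the other secreted genes from 3 h to 6 h. Alternatives were other pseudocounts, scalings, filters, limma options, covariates and left-out arrays.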

Additional observations from a re-analysis of the deposited data

Results flagged for a closer look

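In 3 of 40 sets of 1 gene in 1 group of 4 animals, a single animal stood far from the others by Dixon's test at 95%, which chance alone flags in about 1 set in 20 (2 of 40). Obp1f was highest in animal 21 of the air group at 144 h, with a signal of 157667 against 95977 to 104445 in the other 3. Lyz2 was highest in animal 4 at 3 h after exposure, with a signal of 24047 against 8736 to 10277. Cst3 was highest in animal 17 of the air group at 24 h, with a signal of 5934 against 2222 to 2525. The causes were not tested.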

How the results depend on the processing

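In all 8 comparisons the number of the 8 genes called by limma was 0 under each alternative, and the smallest adjusted p over all settings was 0.0924 (Slpi at 3 h). Of 540 alternative values for 27 changes larger than their SE, 528 kept their direction and 12 reversed. The 528 include settings that cannot alter a difference of group means. These are the other filters, fits of only the groups compared, and arrays left out from groups not compared. Obp1f at 3 h was 0.26 with quantile normalization, 0.21 with array weights, 0.17 without animals 18 and 22 and 0.14 without animals 6, 14 and 18, and leaving out single animals gave -1.22 to 0.17. Obp1f was 0.10 at 6 h with array weights and 0.24 at 144 h with quantile normalization. Serpina1 at 24 h was -0.079 with array weights, and Bpifa1 at 144 h was 0.69 with quantile normalization. Lyz2 from 6 h to 24 h was 0.092 with RNA integrity in the model and 0.075 when those 19 arrays were fitted without that term. Those arrays lack animal 9, which has no RNA integrity number, and leaving out animal 9 alone gave 0.075. Leaving out single animals gave -1.17 to 0.075. The causes of the reversals were not tested. Over all probe sets, the 16 calls at 3 h ranged from 3 to 20 leaving out single animals and were 67 with array weights. Serpina1 has no value under the filter at the 75th percentile, which it did not pass. No paired analysis was possible because each animal belongs to 1 group and no label links animals across groups.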
